A study of Mus musculus with 42 samples.

Results

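Frontal cortex RNA of rTg4510 mice was compared between 3 libraries labelled rTg4510-positive and 3 labelled rTg4510-negative, which make up 6 of the 42 libraries of the series. The members were all genes placed on an autosome or the X chromosome, 20523 of the 20661 genes in the table, and 13941 of them were high enough to be tested. rTg4510 is a mouse model of tauopathy in which mutant human tau is made in forebrain excitatory neurons. Each library was made from total RNA of freshly dissected frontal cortex and read as 75 bp pairs after ribosomal RNA depletion, and all titles carry the mark 8mo, where the number 8 is taken as an age in months. The labels give the groups only as rTg4510- and rTg4510+, so they do not say whether the negative mice carried 1 of the transgenes, and they do not name the strain. Nor is it stated that each library is a separate animal, and p-values here reflect only how far the libraries of a group spread, which may be technical.

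Tau is a neuronal protein that binds microtubules, and in tauopathies, Alzheimer's disease among them, it is phosphorylated and collects into tangles inside neurons. In rTg4510 mice a tetracycline-controlled activator made under the Camk2a promoter switches on a tau transgene, so the protein accumulates mostly in excitatory neurons of cortex and hippocampus, and synapses and neurons are lost as the mice age while microglia and astrocytes become reactive. Excitatory neurons of the cortex are arranged in layers with their own marker genes, and they signal through glutamate receptors, calcium-dependent kinases and the phosphatase calcineurin. In bulk tissue, fewer cells of a type and less RNA per cell cannot be told apart, and that applies to every cell type gene below.

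The libraries differed in markers of sex and of dissected tissue as well as in genotype, and all results below carry that limit. The 4 Y-linked genes tested were at ordinary levels in the 3 negative libraries and near 0 in the 3 positive ones: Ddx3y, a Y-linked RNA helicase, stood at 54.3, 54.5 and 46.8 RPKM in negative and 0.112, 0.118 and 0.1096 in positive libraries 1 to 3. Genotype and sex therefore cannot be told apart here. The X-linked genes Eif2s3x (log2 fold change 0.81 ± 0.09), Kdm6a (0.62 ± 0.11) and Ddx3x (0.52 ± 0.10), partners of Y-linked genes that are known to escape X inactivation, were called higher in the positive libraries, the latter pair without holding when negative library 1 or 3 or positive library 2 or 3 was left out (adjusted p up to 0.0871 for Kdm6a and 0.0983 for Ddx3x). Markers of striatal neurons were high in negative library 2 and in all 3 positive libraries: the dopamine receptor gene Drd1 stood at 14.3, 128 and 11.7 RPKM in negative and 66.2, 38.1 and 59.98 in positive libraries. Markers of olfactory bulb neurons were high only in positive libraries 2 and 3: Eomes, a transcription factor of bulb output neurons, stood at 0.298, 0.36 and 0.0444 RPKM (negative) against 0.663, 41.8 and 42.8 (positive). The choroid plexus gene Ttr stood at 2119.5, 18.4 and 455 RPKM (negative) against 8.81, 10.02 and 22.6 (positive), highest in negative libraries 1 and 3. Negative library 2 and positive library 1 thus formed the pair with striatal and little olfactory bulb signal, and they correlated at 0.9819, within the range of 0.979 to 0.993 for pairs of the same group. Depth ran from 13.87 to 27.02 M reads per library, the lowest in positive library 3, and no 2 libraries held identical values.

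**Figure D1:**
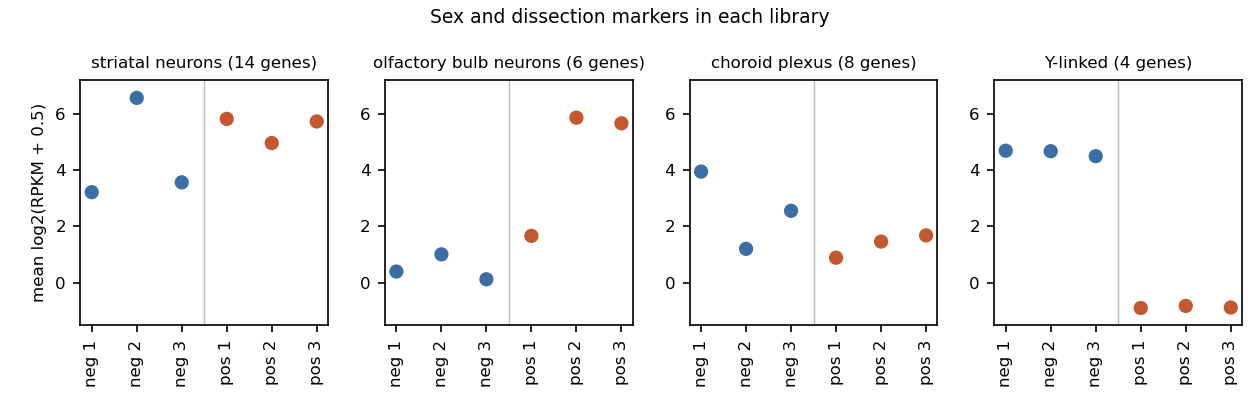
Mean log2(RPKM + 0.5) of marker genes in each of the 6 libraries (neg, negative; pos, positive), 1 point per library. Y-linked genes separate the groups completely, striatal markers are lowest in negative libraries 1 and 3, and olfactory bulb markers are highest in positive libraries 2 and 3.

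In limma's moderated test of all 13972 genes that passed the filter on low values, 1037 (7.42%) differed at an adjusted p under 0.05, 806 (5.77%) higher and 231 (1.65%) lower in positive cortex. Of the autosomal and X-linked genes, 803 were higher and 226 lower, and of the other 8 genes called, 4 were Y-linked (all lower) and 4 had no chromosome matched. The median log2 fold change over all genes was 0.09, so the values were not centred on 0. The share of higher genes among those called was 77.7% as deposited, 57.1% after quantile normalization, 58.1% with median-of-ratios scaling, 51.9% after removing each library's trend with coding length, and 93.4% when libraries were scaled to pan-neuronal genes. Genes called lower were long: their median coding length was 1947 bases and their median span on the genome 102.6 kb, against 1075.5 bases and 18.2 kb for genes called higher and 1404 bases and 25.2 kb for genes not called. Changes of at least 2-fold made up 284 of the higher and 53 of the lower calls. Positive library 1 lay above all negative libraries in all 806 higher calls and below them in all 231 lower calls. The lack of overlap given for single genes below is therefore not separate support for their calls.

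How far the calls rest on single libraries was checked by leaving out each in turn. The number called fell to 326 without negative library 1, 362 without negative library 3, 282 without positive library 2 and 286 without positive library 3, and rose to 1350 without negative library 2 and 2406 without positive library 1. The calls of 234 genes, 195 higher and 39 lower, held in all 6 of these fits, and below such calls are said to hold throughout. With the mean levels of the striatal and olfactory bulb markers as covariates, which leaves 2 residual degrees of freedom, 233 genes were called, 175 of them from the 1037. That fit is referred to as the covariate fit, and it holds no term for sex. It cannot fully separate tissue from genotype, because the olfactory bulb markers also differed by group. Their mean log2 levels were 0.398, 1.008 and 0.124 in negative and 1.665, 5.861 and 5.663 in positive libraries 1 to 3. Without positive libraries 2 and 3, 35 genes were called, 34 of them from the 1037, and without negative libraries 1 and 3, 44 were called, 43 of them from the 1037.

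**Figure D2:**
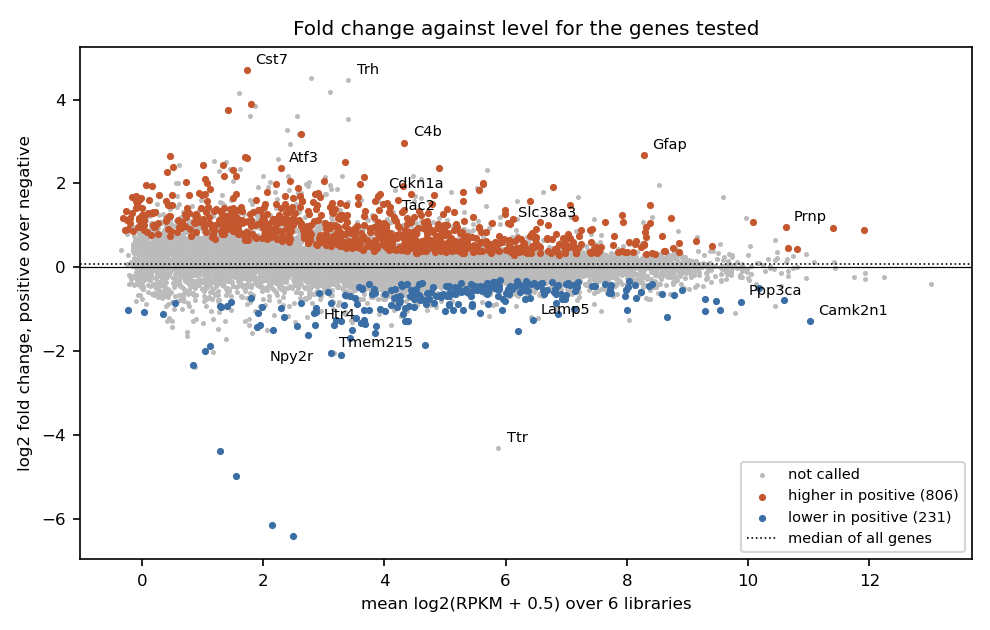
Log2 fold change (positive over negative) against mean log2(RPKM + 0.5) for the 13972 genes tested, with 806 genes called higher in orange and 231 called lower in blue. The dotted line is the median of all genes at 0.09, the 4 lowest blue points are the Y-linked genes, and Trh and Ttr are large differences that did not pass the test.

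**Figure D3:**
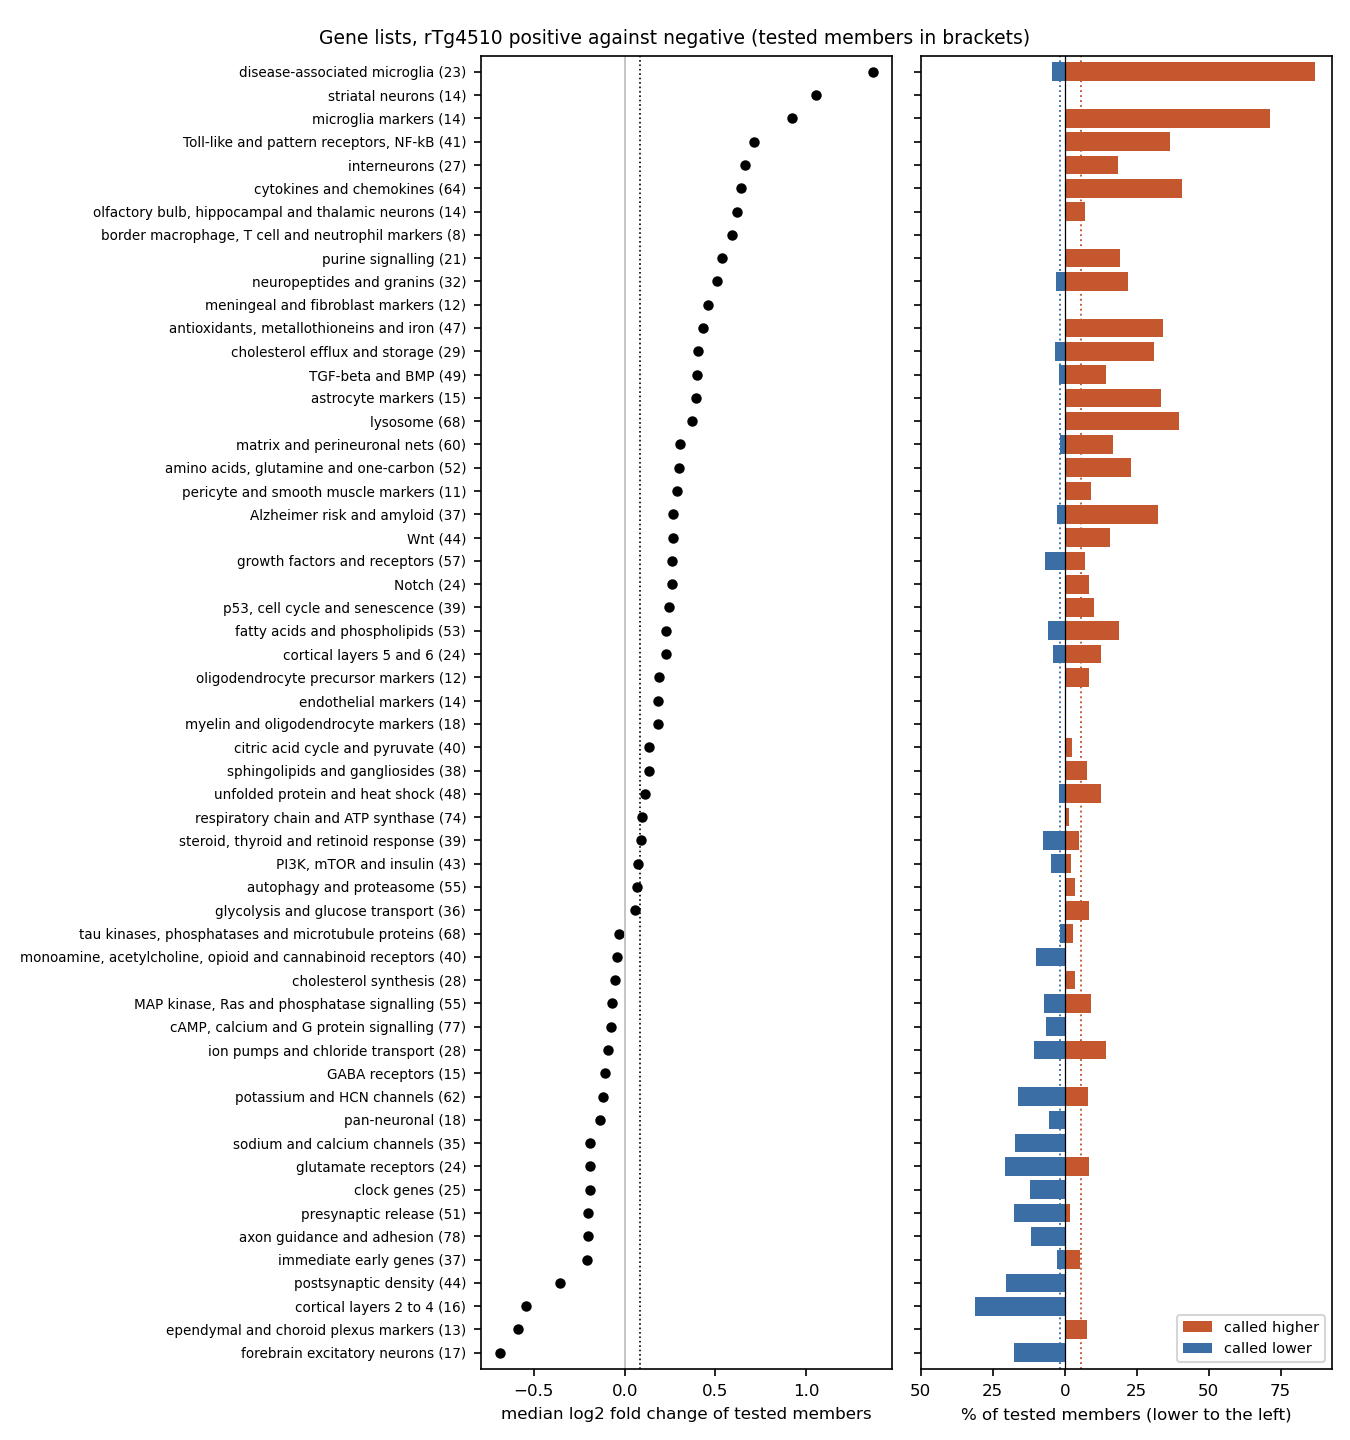
For each gene list except the transgene and insertion loci, the median log2 fold change of its tested members is on the left (dotted line, median of all genes). The share of members called higher (orange) or lower (blue) is on the right, with dotted lines at the shares over all genes, 5.77% and 1.65%. Of the lists shown, the microglia, cytokine and lysosome lists had the largest shares called higher. Layers 2 to 4, glutamate receptors and postsynaptic density had the largest shares called lower.

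The transgene itself was not measured as such. Mapt, the mouse tau gene on chromosome 11, stood at 389, 361 and 409.7 RPKM in negative and 429, 362 and 349 in positive libraries and was not called (-0.03 ± 0.10, adjusted p = 0.879). Prnp, which encodes the prion protein and whose noncoding sequence is used in the vector of the tau transgene, stood at 1266, 984 and 1154 RPKM (negative) against 2357, 2161 and 2047 (positive). All 3 positive libraries lay above all negative ones, at a log2 fold change of 0.95 ± 0.11 (adjusted p = 0.00340) that held throughout. Whether reads of the transgene were counted for Prnp was not tested. The activator transgene is known to have replaced a stretch of chromosome 12 at its insertion site, and 4 of the 5 genes tested there were lower in positive libraries. Esyt2 (chr12:116279283-116390935, GRCm38.p6), a tether between endoplasmic reticulum and plasma membrane, stood at 51.1, 49.3 and 47.5 RPKM (negative) against 22.9, 26.2 and 23.01 (positive), a fold of 0.492. Its neighbours Ptprn2, Ncapg2 and Wdr60 were at 0.463, 0.523 and 0.623 of the negative level. Vipr2, a receptor for vasoactive intestinal peptide in the same stretch (chr12:116077420-116148637), went the other way, at 0.835, 0.777 and 0.934 RPKM (negative) against 2.54, 11.7 and 14.5 (positive), and its levels were highest in positive libraries 2 and 3, as were the olfactory bulb markers. Its call was lost without any 1 of negative libraries 1, 2 or 3 or positive libraries 2 or 3 (adjusted p up to 0.144) and in the covariate fit (log2 fold change 0.80, adjusted p = 0.239). The calls of Ncapg2 and Wdr60 were lost without negative library 1 or 3 or positive library 2 or 3 (adjusted p up to 0.0831 and 0.111). Fgf14, at the insertion site of the tau transgene, was not called (-0.11 ± 0.29, adjusted p = 0.838). Camk2a, the kinase gene whose promoter drives the activator, was lower, at 966, 778 and 963 RPKM (negative) against 571, 380.0 and 385 (positive), without overlap and lowest in positive libraries 2 and 3. Its log2 fold change was -1.04 ± 0.17 (adjusted p = 0.0142); the call was lost without negative library 1 or 3 or positive library 2 or 3 (adjusted p up to 0.0681) and in the covariate fit (-0.40, adjusted p = 0.101).

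Several genes of the upper cortical layers were lower in tau-positive cortex. Of 16 tested genes of layers 2 to 4, 5 (31.25%) were called lower, against 1.65% of all genes, and 0 higher. Their median log2 fold change was -0.54, and 14 of 16 lay below 0. Lamp5, a membrane protein of upper layer neurons and of a class of interneurons, stood at 137, 145 and 123 RPKM in negative and 59.2, 55.3 and 52.5 in positive libraries. The groups were far apart and each was tight, with a log2 fold change of -1.27 ± 0.09 (adjusted p = 6.47e-04), and the covariate fit gave -1.23 (adjusted p = 0.00891). Rasgrf2, an exchange factor that activates Ras and Rac and marks layers 2 and 3, stood at 111, 100.01 and 97.5 RPKM (negative) against 57.5, 60.6 and 64.4 (positive), again without overlap (-0.75 ± 0.09, adjusted p = 0.00325; covariate fit -0.83, adjusted p = 0.0336). Otof, the calcium sensor otoferlin, stood at 5.36, 6.54 and 5.45 RPKM (negative) against 2.603, 1.31 and 1.94 (positive), a log2 fold change of -1.39 ± 0.22 (adjusted p = 0.0113). These 3 calls held throughout. The other 2 called members, the repellent receptor gene Unc5d and the transcription factor gene Cux2, were lost without negative library 1 or positive library 2 or 3 (adjusted p up to 0.0634 and 0.101), Cux2 also without negative library 3. Calb1, which encodes the calcium buffer calbindin, stood at 167, 189.8 and 128 RPKM (negative) against 114, 61.5 and 75.7 (positive) and missed the threshold (-0.97 ± 0.24, adjusted p = 0.0578).

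Other excitatory neuron genes differed along with the dissection markers. Of 17 tested forebrain excitatory neuron genes, 3 (17.6%) were called lower, against 1.65% of all genes. Their median of -0.69 became -0.06 in the covariate fit, where 0 were called. For layers 2 to 4 the median was -0.43 in that fit, with 2 called lower. Nrgn, the calmodulin-binding postsynaptic protein neurogranin, shows the pattern: 2046, 1514 and 2232 RPKM in negative and 1439, 851 and 835 in positive libraries, lowest in positive libraries 2 and 3 and nearly equal in negative library 2 and positive library 1. It was not called (-0.92 ± 0.24, adjusted p = 0.0643). Among 24 genes of layers 5 and 6, 3 (12.5%) were higher and 1 (4.17%) was lower, with a median of 0.23. Over all genes 5.77% were higher and 1.65% lower. Nxph4, a neurexin ligand of deep layer neurons, stood at 1.2, 1.67 and 1.498 RPKM (negative) against 3.53, 4.21 and 4.11 (positive) and held throughout (1.19 ± 0.17, adjusted p = 0.00757; covariate fit 0.90, adjusted p = 0.146). Ctgf, a matrix-associated growth factor expressed in layer 6b, stood at 29.5, 23.3 and 24.8 RPKM (negative) against 41.3, 52.5 and 59.8 (positive), a log2 fold change of 0.96 ± 0.15 (adjusted p = 0.0110), a call lost without positive library 2 (adjusted p = 0.0561). The pan-neuronal list had 1 of 18 members (5.56%) lower and a median of -0.14. That member was the neurofilament gene Nefl (-0.61 ± 0.14, lost without negative library 1 or 3 or positive library 2 or 3, adjusted p up to 0.125). The part of the olfactory bulb and striatal tissue in these differences was not tested beyond the covariate fit, which cannot fully separate it from genotype.

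The genes with the lowest fold changes included several neuronal genes of lower abundance. Tmem215, a membrane protein gene, stood at 19.8, 17.3 and 14.8 RPKM in negative and 4.09, 3.905 and 3.38 in positive libraries. That was a fold of 0.242 with no overlap (log2 -2.05 ± 0.14, adjusted p = 6.47e-04), and it held throughout and in the covariate fit (-1.93, adjusted p = 0.0190). Ddit4l, a stress-inducible inhibitor of mTOR signalling, stood at 19.3, 14.6 and 23.8 RPKM (negative) against 5.94, 5.49 and 5.23 (positive), with the positive libraries again tight and below all negative ones (-1.68 ± 0.18, adjusted p = 0.00239; covariate fit -1.30, adjusted p = 0.0342). Npy2r, a receptor for neuropeptide Y, stood at 21.6, 11.7 and 29.4 RPKM (negative) against 5.15, 3.77 and 3.79 (positive), a log2 fold change of -2.10 ± 0.31 (adjusted p = 0.0107). In this gene negative library 2 was the lowest of its group, and the call was lost without negative library 1 or positive library 2 or 3 (adjusted p up to 0.0650). Ntf3, the neurotrophin that activates the receptor TrkC, stood at 5.9, 1.82 and 4.23 RPKM (negative) against 0.774, 0.286 and 0.621 (positive), with negative library 2 nearest to the positive ones (-1.99 ± 0.38, adjusted p = 0.0234), and was lost without negative library 1 or 3 or positive library 2 or 3 (adjusted p up to 0.0930).

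Calcium-dependent signalling in neurons runs through calmodulin to the kinase CaMKII and to calcineurin, and several of its genes were lower. Of 77 tested genes of cAMP, calcium and G protein signalling, 5 (6.49%) were lower, against 1.65% of all genes, and 0 higher, with a median of -0.08. Camk2n1, an inhibitor of CaMKII, is not on this list and was among the 20 lowest called genes. Its level was 3351, 3693 and 2751 RPKM in negative and 1724, 1260.1 and 1082 in positive libraries. Every positive library lay below every negative one, at a log2 fold change of -1.29 ± 0.18 (adjusted p = 0.00820) for Camk2n1 that held throughout. In the covariate fit it was -0.93 (adjusted p = 0.0843). Ppp3ca, the catalytic A-alpha subunit of calcineurin, stood at 1233, 1303 and 1213 RPKM (negative) against 831, 622 and 685 (positive). The positive libraries were lower without overlap (-0.82 ± 0.11, adjusted p = 0.00713), which held throughout, with -0.56 (adjusted p = 0.0524) in the covariate fit. Its regulatory subunit gene Ppp3r1 was lower by a smaller amount, -0.49 ± 0.10, and its call was lost in all of the omissions except that of positive library 1 (adjusted p up to 0.124). Camk1d, a calcium-activated kinase, stood at 161, 146 and 178 RPKM (negative) against 104, 99.2 and 100.5 (positive), without overlap (-0.67 ± 0.09, adjusted p = 0.00649), and held throughout.

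**Figure D4:**
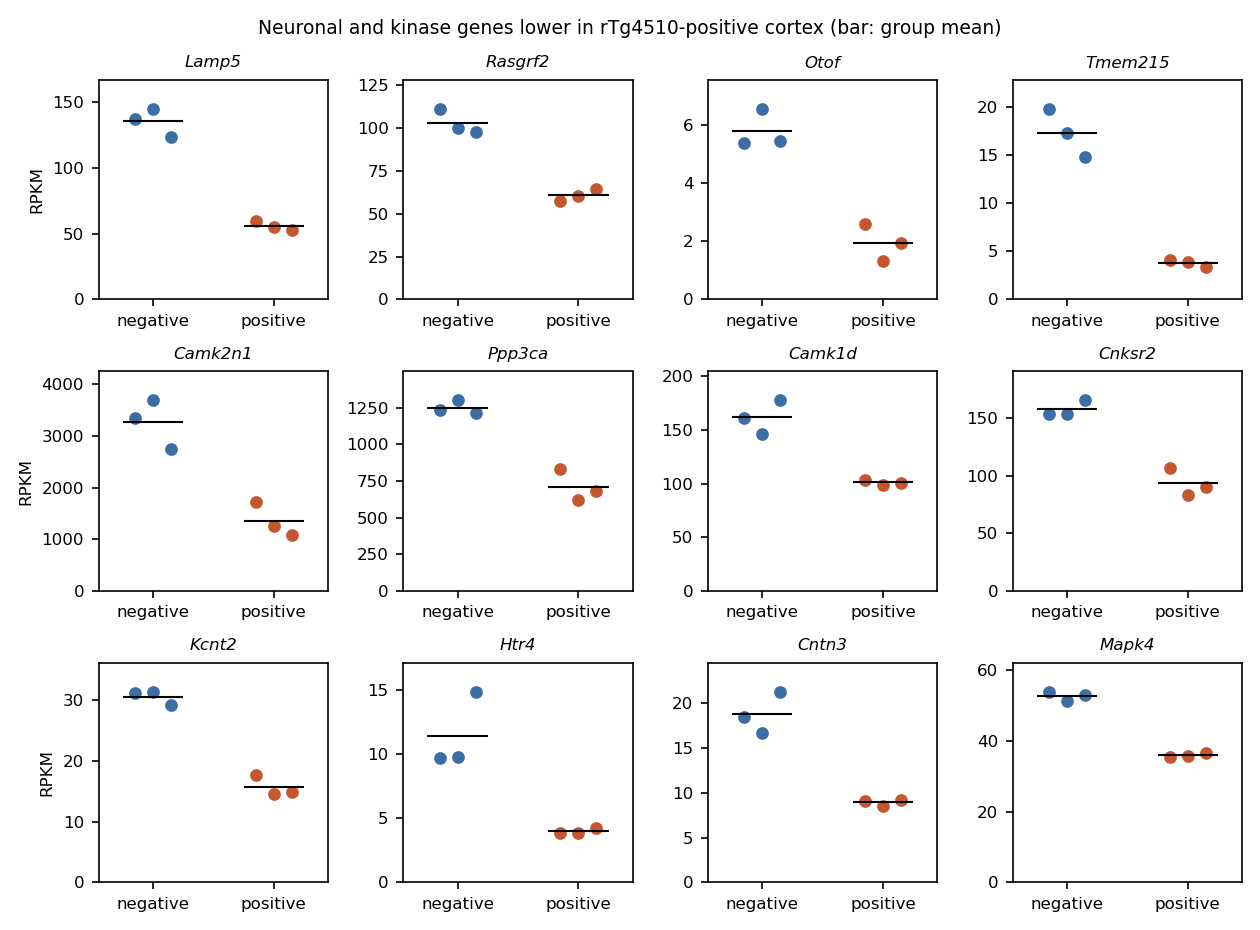
RPKM of 12 genes called lower in rTg4510-positive cortex, 1 point per library and a bar at each group's mean, with axes starting at 0. In each of the 12 genes the 3 positive libraries lie below the 3 negative ones. Positive library 1 lay below all negative libraries in all 231 genes called lower.

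Kinase and growth factor genes gave a short list of tight differences. On the list of PI3K, mTOR and insulin signalling, 2 of 43 (4.65%) were lower and 1 (2.33%) was higher, against 1.65% and 5.77% of all genes. Mapk4, an atypical MAP kinase, stood at 53.9, 51.3 and 52.97 RPKM in negative and 35.6, 35.6 and 36.6 in positive libraries, without overlap and holding throughout (-0.55 ± 0.07, adjusted p = 0.00679); scaled to pan-neuronal genes it was -0.36 (adjusted p = 0.0602). On the list of MAP kinase, Ras and phosphatase genes, 4 of 55 (7.27%) were lower and 5 (9.09%) higher. The higher ones included Ptpn6, a phosphatase of blood and microglial cells (1.499 ± 0.16). Fgf13, an intracellular relative of the fibroblast growth factors that binds sodium channels and microtubules, stood at 74.8, 60.5 and 76.6 RPKM (negative) against 37.8, 39.6 and 36.9 (positive). It lies on the X chromosome and held throughout (-0.87 ± 0.11, adjusted p = 0.00408; covariate fit -0.74, adjusted p = 0.0327). Igfbp4, a binding protein for insulin-like growth factors, stood at 83.5, 82.6 and 93.5 RPKM (negative) against 51.6, 42.4 and 35.5 (positive), a log2 fold change of -1.01 ± 0.14 (adjusted p = 0.00649). Among 57 growth factors and receptors, 4 (7.02%) were higher and 4 (7.02%) lower, against 5.77% and 1.65% of all genes.

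The synapse genes that were called were mostly lower. The postsynaptic density list had 9 of 44 members lower and 0 higher, with a median of -0.36 and 41 of 44 members below 0, against 1.65% of all genes lower. Only 1 of those 9 calls held throughout. This was Cnksr2, an X-linked scaffold of postsynaptic Ras signalling, at 153, 154 and 165 RPKM in negative and 106, 82.7 and 90.2 in positive libraries. Positive library 1 was the highest of its group but still below all negative libraries (-0.76 ± 0.10, adjusted p = 0.00688; covariate fit -0.48, adjusted p = 0.0897). In the presynaptic release list 9 of 51 (17.6%) were lower and 1 (1.96%) was higher, with a median of -0.20. Doc2b, a calcium sensor for spontaneous transmitter release, stood at 20.5, 20.9 and 27.3 RPKM (negative) against 12.8, 9.44 and 10.1 (positive) and was the call there that held throughout (-1.05 ± 0.16, adjusted p = 0.00879). Cplx2, a complexin that clamps vesicle fusion, stood at 1839, 2204 and 2023 RPKM (negative) against 1514, 1041 and 1027 (positive), lowest in positive libraries 2 and 3 (-0.78 ± 0.16, adjusted p = 0.0280), and was lost without negative library 1 or 3 or positive library 2 or 3 (adjusted p up to 0.108). In the covariate fit 1 presynaptic gene was called lower and 0 postsynaptic ones. Snap25, a core fusion protein, was not called (-0.22 ± 0.10, adjusted p = 0.193).

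Calls among transmitter receptor genes differed in number by family. Among 24 glutamate receptor genes 5 (20.8%) were lower and 2 (8.33%) higher (median -0.19), against 1.65% and 5.77% of all genes. The share higher was close to that over all genes. The subunit of kainate receptors encoded by Grik3 was higher, at 42.9, 51.5 and 48.7 RPKM in negative and 63.1, 69.2 and 67.6 in positive libraries (0.48 ± 0.09, adjusted p = 0.0243). The NMDA receptor subunit gene Grin2a was lower, at 38.99, 28.5 and 47.97 RPKM (negative) against 21.5, 23.5 and 17.2 (positive), a log2 fold change of -0.86 ± 0.20 (adjusted p = 0.0421), and the metabotropic receptor gene Grm5 was lower as well (-0.57 ± 0.11). None of the 7 calls held throughout: Grik3 and Grm5 were lost without negative library 1 or 3 or positive library 2 or 3 (adjusted p up to 0.102 and 0.0853), and Grin2a also without positive library 1 (up to 0.142). Of 15 GABA receptor genes, limma called 0, with 1 higher and 2 lower at an unadjusted p under 0.05, and voom on the recovered reads also called 0. Among 40 receptors for monoamines, acetylcholine, opioids and cannabinoids, 4 (10%) were lower, against 1.65% of all genes, and 0 higher. Htr4, a serotonin receptor that raises cAMP, stood at 9.69, 9.796 and 14.9 RPKM (negative) against 3.88, 3.86 and 4.21 (positive). The 3 positive values were nearly equal and each was under every negative one (-1.39 ± 0.18, adjusted p = 0.00543), and this call held throughout, though not in the covariate fit (-1.29, adjusted p = 0.0911). The other lower receptor genes were the alpha-1D adrenergic receptor gene Adra1d (-1.06 ± 0.20), the serotonin receptor gene Htr1a (-0.94 ± 0.19) and the muscarinic receptor gene Chrm1 (-0.59 ± 0.14). Their calls were lost without negative library 1 or 3 or positive library 2 or 3, with adjusted p up to 0.0920, 0.110 and 0.141.

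Of the ion channel genes called, most were lower. The list of potassium and HCN channels had 10 of 62 members (16.1%) lower and 5 (8.06%) higher, against 1.65% and 5.77% of all genes. That of sodium and calcium channels had 6 of 35 (17.1%) lower and 0 higher. Kcnt2, a sodium-activated potassium channel, stood at 31.3, 31.5 and 29.2 RPKM in negative and 17.8, 14.6 and 14.9 in positive libraries. It was the call on these 2 lists that held throughout (-0.94 ± 0.10, adjusted p = 0.00285; covariate fit -0.75, adjusted p = 0.0518). Kcns1, a silent potassium channel subunit that modifies others, stood at 9.003, 7.27 and 11.8 RPKM (negative) against 3.996, 2.96 and 2.56 (positive), a log2 fold change of -1.42 ± 0.21 (adjusted p = 0.00950), and its call was lost without positive library 2 (adjusted p = 0.0506). Cacna2d3, an auxiliary calcium channel subunit, stood at 44.05, 59.6 and 47.9 RPKM (negative) against 31.02, 22.99 and 27.2 (positive). Its call (-0.89 ± 0.15, adjusted p = 0.0135) was present in the covariate fit (-0.80, adjusted p = 0.0342) and lost without positive library 2 or 3 (adjusted p up to 0.0608). Trpc6, a cation channel opened by diacylglycerol, is not on these 2 lists and was chosen after its values were seen. It stood at 22.4, 19.3 and 16.2 RPKM (negative) against 7.09, 7.52 and 8.63 (positive) and held throughout (-1.26 ± 0.14, adjusted p = 0.00323). Kcnj10, the inward rectifier of astrocytes, was higher at 119.7, 138 and 111 RPKM (negative) against 180.2, 256 and 253 (positive), a log2 fold change of 0.89 ± 0.15 (adjusted p = 0.0157), and was lost without negative library 1 or 3 or positive library 2 or 3 (adjusted p up to 0.0722).

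Genes of axon guidance and adhesion fell in 9 of 78 (11.5%), against 1.65% of all genes, and rose in 0 (median -0.20). Cntn3, a contactin of the immunoglobulin family on axons, stood at 18.5, 16.7 and 21.3 RPKM in negative and 9.08, 8.499 and 9.21 in positive libraries. Cdh8, a cadherin of cortical circuits, stood at 46.3, 43.9 and 46.2 RPKM (negative) against 27.2, 17.6 and 21.4 (positive). In both genes all positive libraries lay below all negative ones (Cntn3 -1.03 ± 0.12, adjusted p = 0.00325; Cdh8 -1.05 ± 0.15, adjusted p = 0.00744), and both calls held throughout, while the covariate fit gave -0.89 (adjusted p = 0.0691) and -0.61 (adjusted p = 0.0935). Nrn1, an activity-induced surface protein that promotes neurite growth, is not on this list and was chosen after its values were seen. It stood at 391, 329.7 and 374 RPKM (negative) against 218, 175 and 151 (positive) and held throughout (-1.02 ± 0.14, adjusted p = 0.00679).

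Of 37 immediate early genes 1 (2.7%) was lower and 2 (5.41%) were higher, shares close to those over all genes (1.65% and 5.77%). The higher ones were Maff (1.24 ± 0.18, held throughout) and Gadd45g (0.66 ± 0.12, lost without negative library 1 or positive library 2 or 3, adjusted p up to 0.0862). Arc, which is induced by synaptic activity, stood at 471, 282 and 495 RPKM in negative and 252, 282 and 66.3 in positive libraries; the groups overlapped, and the lowest value was in positive library 3 (-1.26 ± 0.60, adjusted p = 0.246). Fos, another activity gene, stood at 57.5, 25.8 and 56.4 RPKM (negative) against 49.4, 63.6 and 18.98 (positive), also overlapping (-0.16 ± 0.53, adjusted p = 0.880). Egr3 was the call in the lower direction (-1.10 ± 0.21, adjusted p = 0.0252), lost without negative library 1 or 3 or positive library 2 (adjusted p up to 0.0858). Of 25 clock genes 3 (12%) were lower, against 1.65% of all genes, and 0 higher: the transcription factor genes Hlf, Tef and Bhlhe40 (-0.76 ± 0.17, -0.45 ± 0.10 and -0.55 ± 0.12). None of them held throughout, with adjusted p up to 0.122, 0.132 and 0.121 (Tef and Bhlhe40 lost without negative library 1 or 3 or positive library 2 or 3, Hlf also without positive library 1).

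The neuropeptide genes that were called were mostly higher. Of 32 tested, 7 (21.9%) were higher and 1 (3.1%) lower, against 5.77% and 1.65% of all genes, with a median of 0.51. Tac2, which encodes neurokinin B, stood at 11.1, 10.97 and 11.6 RPKM in negative and 28.1, 26.7 and 25.1 in positive libraries. The groups were tight and apart by a fold of 2.31 (1.21 ± 0.09, adjusted p = 7.51e-04), and positive library 1 was the highest. Vip, vasoactive intestinal peptide of a class of cortical interneurons, stood at 79.6, 80.3 and 84.7 RPKM (negative) against 139.5, 127 and 122 (positive), and again positive library 1 was the highest (0.66 ± 0.08, adjusted p = 0.00420). Both held throughout and in the covariate fit (Tac2 1.33, adjusted p = 0.0104, and Vip 0.82, adjusted p = 0.0211). The part of the dissected tissue in these 2 calls was not tested beyond that fit, and the part of sex was not tested at all. Npy, neuropeptide Y, stood at 195, 307 and 205 RPKM (negative) against 491, 476 and 468 (positive), with negative library 2 between the rest of its group and the positive libraries (1.05 ± 0.16, adjusted p = 0.0115; covariate fit 0.82, adjusted p = 0.0246); its call was lost without positive library 2 or 3 (adjusted p up to 0.0573). Pnoc, the nociceptin precursor, stood at 7.12, 6.72 and 6.95 RPKM (negative) against 14.9, 11.6 and 9.85 (positive), a log2 fold change of 0.75 ± 0.16 (adjusted p = 0.0308) and was lost without negative library 1 or 3 or positive library 2 (adjusted p up to 0.104). Crh, corticotropin-releasing hormone, was higher as well (0.86 ± 0.13), lost without negative library 1 or positive library 2 or 3 (adjusted p up to 0.0567). Sst, somatostatin, stood at 268, 278 and 297 RPKM (negative) against 387, 182 and 225 (positive) with overlapping groups (-0.16 ± 0.26, adjusted p = 0.723).

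Of 27 tested interneuron genes, Vip and Npy among them, 5 (18.5%) were higher, against 5.77% of all genes, and 0 lower. Their median of 0.66 became -0.01 in the covariate fit. Gad1, the enzyme that makes GABA, stood at 181, 263 and 203 RPKM in negative and 246, 619 and 589 in positive libraries, and positive libraries 2 and 3 stood above the range of the rest (1.07 ± 0.37, adjusted p = 0.131). The interneuron transcription factor genes Dlx2 (1.58 ± 0.35) and Dlx6 (1.48 ± 0.31) were called higher and were lost without negative library 1 or 3 or positive library 2 or 3 (adjusted p up to 0.138 and 0.112). In the covariate fit they stood at 0.37 (adjusted p = 0.576) and 0.59 (adjusted p = 0.276).

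Metabolic and signalling genes that rose have to be read beside the glial markers, which were higher in the same libraries. Of 14 microglia markers 10 were higher and 0 lower, with means of 4.29 to 4.53 on the log2 scale in negative and 5.27 to 5.54 in positive libraries; of 15 astrocyte markers 5 were higher, with means of 6.78 to 6.96 and 7.37 to 7.57. The list of genes of disease-associated microglia had 20 of 23 higher and 1 lower. P2ry12, a purine receptor of resting microglia, stood at 50.8, 68.7 and 52.8 RPKM in negative and 56.1, 48.1 and 64.1 in positive libraries with overlapping groups (-0.03 ± 0.15, adjusted p = 0.921). Markers of border macrophages, T cells and neutrophils (0 of 8 called), endothelium (0 of 14) and myelin and oligodendrocytes (0 of 18) were not called by limma or voom, with 3, 3 and 3 higher and 0, 0 and 0 lower at an unadjusted p under 0.05. The part of the glial RNA in the differences below was not tested.

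More genes of cholesterol transport than of cholesterol synthesis were called. Among 29 genes of cholesterol efflux and storage, 9 were higher and 1 lower (median 0.41), while of 28 genes of cholesterol synthesis 1 was higher and 0 lower (median -0.05). Abca1, the transporter that loads cholesterol onto apolipoprotein E, stood at 14.5, 14.04 and 14.7 RPKM in negative and 28.1, 39.8 and 45.6 in positive libraries. The negative libraries agree within a few percent, and all positive libraries lay above them (1.33 ± 0.17, adjusted p = 0.00465; held throughout; covariate fit 0.84, adjusted p = 0.0551). Apoe, the main lipoprotein of the brain, stood at 1945, 1851 and 2058 RPKM (negative) against 3459.8, 3716 and 4137 (positive), a log2 fold change of 0.95 ± 0.09 (adjusted p = 0.00195; covariate fit 0.84, adjusted p = 0.0292). Npc2, which moves cholesterol out of lysosomes, stood at 97.9, 103 and 93.99 RPKM (negative) against 166, 188 and 161 (positive), a log2 fold change of 0.80 ± 0.09 (adjusted p = 0.00284). The groups of Apoe and Npc2 did not overlap and both held throughout. Ch25h, which makes the oxysterol 25-hydroxycholesterol, was low in negative libraries at 0.141, 0.285 and 0.263 RPKM and stood at 1.32, 1.13 and 1.37 in positive ones (1.28 ± 0.19, adjusted p = 0.00942; lost without positive library 3, adjusted p = 0.0524). The lipid droplet gene Plin2 and Soat1, the enzyme that esterifies cholesterol, were higher (0.93 ± 0.20 and 0.58 ± 0.10) and both were lost without negative library 3 or positive library 2 or 3, Plin2 also without negative library 2 (adjusted p up to 0.126 and 0.0761). On the synthesis list the call was Srebf1, a transcription factor of lipid synthesis, at 18.6, 17.6 and 21.6 RPKM (negative) against 35.7, 31.3 and 33.98 (positive), without overlap and holding throughout (0.79 ± 0.11, adjusted p = 0.00650; covariate fit 0.99, adjusted p = 0.0342).

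Of 53 genes of fatty acids, phospholipids and prostaglandins 10 (18.9%) were higher and 3 (5.66%) lower, against 5.77% and 1.65% of all genes. Of the higher calls 0 held throughout, and of the lower calls 1. Ptgs2, the inducible cyclooxygenase that is made by cortical neurons, was lower, at 13.7, 12.3 and 15.2 RPKM in negative and 7.17, 5.09 and 4.34 in positive libraries. Its groups did not overlap and the call held throughout (-1.26 ± 0.18, adjusted p = 0.00812), with -0.67 (adjusted p = 0.139) in the covariate fit. Ptgs1, the constitutive cyclooxygenase that is strong in microglia, was higher, at 8.25, 11.2 and 8.27 RPKM (negative) against 17.1, 14.2 and 15.9 (positive), a log2 fold change of 0.75 ± 0.15 (adjusted p = 0.0247), a call lost without negative library 1 or 3 or positive library 2 or 3 (adjusted p up to 0.0986). Ptges, the prostaglandin E synthase downstream of the cyclooxygenases, is not on this list and was chosen after its values were seen. It stood at 11.2, 10.9 and 11.9 RPKM (negative) against 23.7, 21.3 and 21.5 (positive) and held throughout (0.94 ± 0.10, adjusted p = 0.00237). In the covariate fit it was 1.10 (adjusted p = 0.0211). Scd2, the brain's main stearoyl-CoA desaturase, stood at 1341, 1349 and 1446 RPKM (negative) against 1831, 1980.2 and 1906 (positive), a log2 fold change of 0.47 ± 0.08 (adjusted p = 0.0143) and was lost without negative library 1 or positive library 2 or 3 (adjusted p up to 0.0809). Alox12b, a lipoxygenase, was lower (-1.87 ± 0.32) and lost without negative library 1 or 3 or positive library 2 or 3 (adjusted p up to 0.0698).

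The lysosome list had the most calls of the metabolic lists, 27 of 68 (39.7%) higher, against 5.77% of all genes, and 0 lower. Its median was 0.37, and 20 of the calls held throughout. Many lysosomal genes carry a short E-box in their promoters to which the transcription factor TFEB and its relatives bind. The letters TCACGTG, read on both strands so that CACGTGA counts too and TCACGTGA counts once, were found in 3.77% of all 32851 RefSeq promoters of 300 bases (from before each gene's start to just past it; GRCm38.p6) and in 712 of the 10601 tested genes matched to a promoter by symbol. Of the lysosome list's 68 tested genes 54 matched, and 15 held the letters: 6 of the 22 called higher and 9 of the 32 not called. A match describes the letters and not a bound site. Of the 4 promoters of genes called higher that hold the letters more than once, those of Ctsd, Ctsa and Lamp1 are shown as examples, with the letters in capitals, 5′ to 3′ on the strand of the gene.
Ctsd (chr7:142387778-142388077, minus strand): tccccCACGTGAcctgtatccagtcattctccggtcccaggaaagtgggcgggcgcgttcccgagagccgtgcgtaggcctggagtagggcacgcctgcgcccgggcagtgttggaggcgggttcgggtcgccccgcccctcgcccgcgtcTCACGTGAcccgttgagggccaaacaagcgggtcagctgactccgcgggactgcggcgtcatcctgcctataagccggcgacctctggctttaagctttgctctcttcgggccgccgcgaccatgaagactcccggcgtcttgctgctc
Ctsa (chr2:164833523-164833822, plus strand): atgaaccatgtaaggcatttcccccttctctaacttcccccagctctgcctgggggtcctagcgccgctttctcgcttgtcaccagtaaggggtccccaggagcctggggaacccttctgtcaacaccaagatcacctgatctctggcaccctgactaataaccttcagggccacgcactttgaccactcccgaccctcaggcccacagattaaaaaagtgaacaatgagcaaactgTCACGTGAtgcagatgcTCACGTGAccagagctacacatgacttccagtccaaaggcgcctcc
Lamp1 (chr8:13158911-13159210, plus strand): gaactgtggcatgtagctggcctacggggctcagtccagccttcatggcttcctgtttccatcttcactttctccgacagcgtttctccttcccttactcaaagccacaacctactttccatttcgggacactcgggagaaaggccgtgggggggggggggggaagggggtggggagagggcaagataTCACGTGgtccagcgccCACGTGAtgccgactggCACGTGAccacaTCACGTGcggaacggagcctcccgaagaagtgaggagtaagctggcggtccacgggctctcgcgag
Ctsd, the aspartic protease cathepsin D, stood at 287, 284 and 269.7 RPKM in negative and 751, 564 and 607 in positive libraries, with positive library 1 the highest. Its log2 fold change was 1.18 ± 0.11 (adjusted p = 0.00158) and 1.47 in the covariate fit (adjusted p = 0.00245). Ctsa, the carboxypeptidase that protects other lysosomal enzymes, stood at 69.8, 71.2 and 68.99 RPKM (negative) against 127, 101 and 112 (positive), a log2 fold change of 0.69 ± 0.10 (adjusted p = 0.00744), and held throughout as Ctsd did. Lamp1, a structural protein of the lysosomal membrane whose promoter holds the letters 4 times, stood at 259.6, 247 and 249 RPKM (negative) against 338, 358 and 368 (positive), a log2 fold change of 0.49 ± 0.07 (adjusted p = 0.00960), a smaller difference, lost without positive library 2 or 3 (adjusted p up to 0.0551).

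Lysosomal enzymes that degrade gangliosides and sugars were among the genes that rose. Hexa, the alpha subunit of hexosaminidase, stood at 35.5, 31.4 and 34.2 RPKM in negative and 72.6, 59.5 and 62.7 in positive libraries. The groups did not overlap and positive library 1 was the highest, with a log2 fold change of 0.93 ± 0.10 (adjusted p = 0.00260). Man2b1, the lysosomal alpha-mannosidase, stood at 9.595, 8.73 and 13.2 RPKM (negative) against 30.9, 21.9 and 26.5 (positive), a log2 fold change of 1.297 ± 0.18 (adjusted p = 0.00726). Grn, progranulin, stood at 16.4, 14.8 and 17.9 RPKM (negative) against 50.1, 35.6 and 37.6 (positive), a log2 fold change of 1.29 ± 0.14 (adjusted p = 0.00285). These 3 genes held throughout and were called in the covariate fit, with log2 fold changes from 1.21 (Hexa) to 1.77 (Grn). Of 55 genes of autophagy and the proteasome 2 (3.64%) were higher, against 5.77% of all genes, and 0 lower (median 0.07). The 2 were Psmb8 and Psmb9, subunits of the immunoproteasome (1.17 ± 0.20 and 1.11 ± 0.27). Their calls were lost without positive library 2 or 3, Psmb9 also without any 1 of the negative libraries (adjusted p up to 0.0794 and 0.148).

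**Figure D5:**
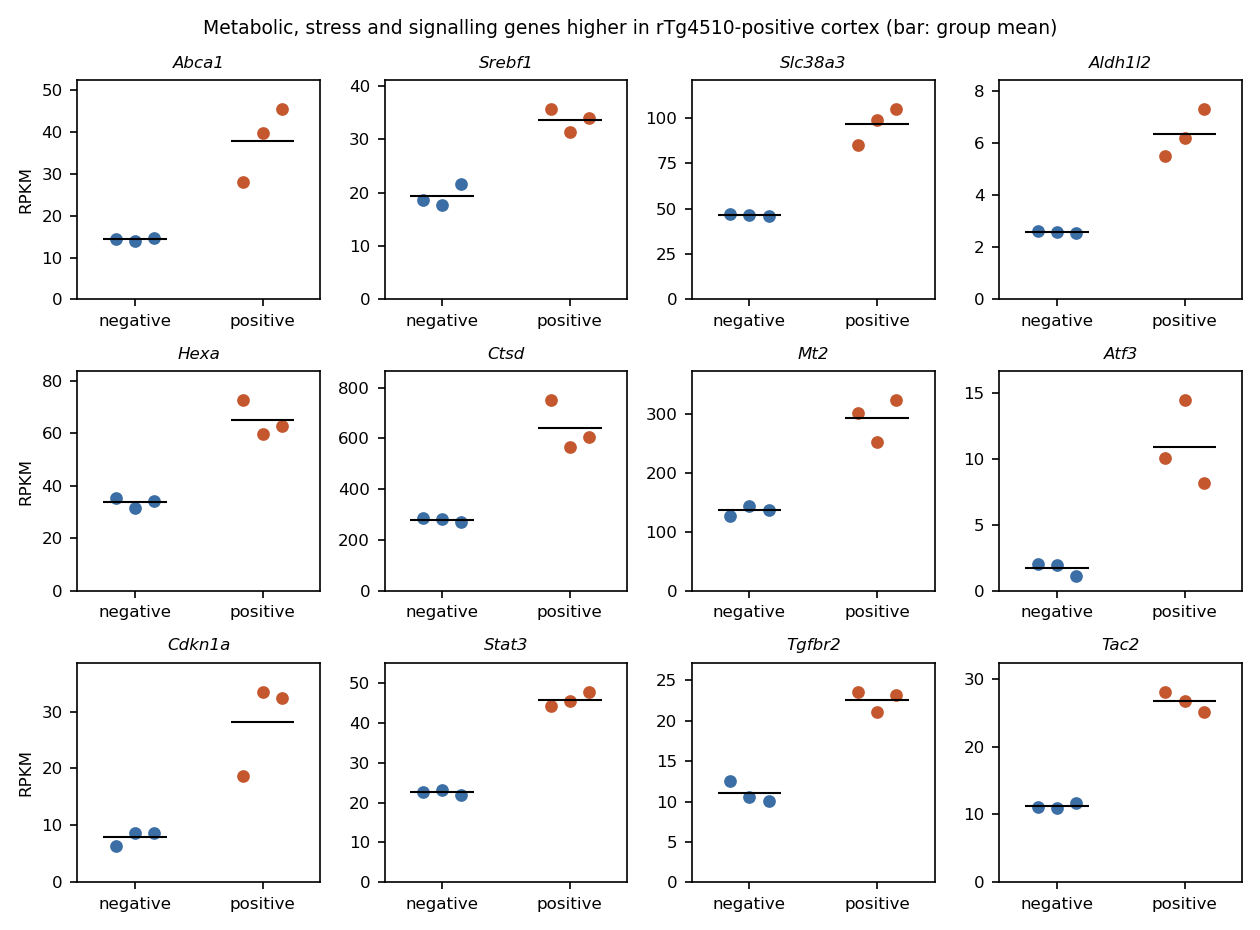
RPKM of 12 genes called higher in rTg4510-positive cortex, 1 point per library and a bar at each group's mean, with axes starting at 0. In each of the 12 genes the 3 positive libraries lie above the 3 negative ones. Positive library 1 lay above all negative libraries in all 806 genes called higher.

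Amino acid transport and one-carbon genes rose in 12 of 52 (23.1%), against 5.77% of all genes, with 0 lower and a median of 0.30. Slc38a3, the glutamine transporter through which astrocytes release and take up glutamine, stood at 46.97, 46.6 and 45.7 RPKM in negative and 85.3, 99.04 and 105 in positive libraries. The 3 negative values were nearly equal and far below the positive ones (1.04 ± 0.09, adjusted p = 0.00139; covariate fit 0.81, adjusted p = 0.0246). Slc6a9, the glycine transporter GlyT1, stood at 18.2, 17.96 and 21.1 RPKM (negative) against 29.8, 36.8 and 37.1 (positive), a log2 fold change of 0.84 ± 0.12 (adjusted p = 0.00746). Aldh1l2, the mitochondrial enzyme that oxidizes 10-formyltetrahydrofolate, stood at 2.63, 2.59 and 2.55 RPKM (negative) against 5.51, 6.19 and 7.32 (positive), a log2 fold change of 1.14 ± 0.15 (adjusted p = 0.00618). All 3 calls held throughout, and the covariate fit gave 0.63 (adjusted p = 0.0937) for Slc6a9 and 0.90 (adjusted p = 0.119) for Aldh1l2. Shmt2, the mitochondrial serine hydroxymethyltransferase that feeds the same folate pool, was also higher (0.61 ± 0.12), as was Glul, the glutamine synthetase of astrocytes, at 1413, 1604 and 1623 RPKM (negative) against 1967, 2142 and 2150.1 (positive), a log2 fold change of 0.43 ± 0.09 (adjusted p = 0.0291). Both were lost without negative library 1 or 3 or positive library 2 or 3 (adjusted p up to 0.0970 and 0.124).

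Genes of central energy metabolism were read against the shares over all genes. Of 36 genes of glycolysis and glucose transport 3 were higher and 0 lower (median 0.06), of 40 genes of the citric acid cycle and pyruvate 1 was higher (median 0.13), and of 74 subunits of the respiratory chain and ATP synthase 1 was higher (median 0.10), against 5.77% of all genes higher and a median of 0.09. Hk2, an inducible hexokinase, stood at 1.97, 1.13 and 1.37 RPKM in negative and 3.61, 2.88 and 3.22 in positive libraries (0.93 ± 0.20, adjusted p = 0.0337), and G6pdx, the entry enzyme of the pentose phosphate pathway, at 20.7, 22.996 and 21.98 RPKM (negative) against 28.8, 35.03 and 35.05 (positive), a log2 fold change of 0.58 ± 0.11 (adjusted p = 0.0205). Neither held throughout (adjusted p up to 0.115 and 0.0913): both were lost without negative library 3 or positive library 2 or 3, Hk2 also without negative library 2 and G6pdx also without negative library 1. Ndufc2, a subunit of complex I, was the respiratory chain gene called (0.34 ± 0.08, adjusted p = 0.0489), lost without negative library 1 or 3 or positive library 2 or 3 (adjusted p up to 0.184). The glucose transporter gene Slc2a1 was not called, though its groups did not overlap (0.25 ± 0.11, adjusted p = 0.209).

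Of 47 antioxidant, metal and iron genes 16 rose and 0 fell (median 0.43), and 8 of the calls held throughout. Several of these, the NADPH oxidase subunits Cyba, Ncf1 and Ncf4 and the GTPase Rac2 among them, belong to phagocytes. Mt2, a metal-binding metallothionein, stood at 127, 143 and 138 RPKM in negative and 302, 251 and 323 in positive libraries, well apart (1.09 ± 0.11, adjusted p = 0.00184; covariate fit 1.11, adjusted p = 0.0258). Prdx6, a peroxiredoxin of astrocytes that reduces phospholipid peroxides, stood at 242, 242 and 259 RPKM (negative) against 421, 415 and 395 (positive), a log2 fold change of 0.73 ± 0.07 (adjusted p = 0.00224). Ftl1, the ferritin light chain, stood at 296, 285 and 304 RPKM (negative) against 519, 509 and 458 (positive), a log2 fold change of 0.75 ± 0.08 (adjusted p = 0.00280). Hmox1, which degrades heme, stood at 6.31, 4.52 and 4.51 RPKM (negative) against 15.1, 11.7 and 13.5 (positive), a log2 fold change of 1.32 ± 0.17 (adjusted p = 0.00465). In these 4 genes the groups did not overlap, and their calls held throughout and in the covariate fit.

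Of 48 genes of the unfolded protein and heat shock responses 6 (12.5%) were higher, against 5.77% of all genes, and 1 (2.08%) was lower (median 0.11). Atf3, a stress-induced transcription factor that is known to appear in injured neurons, stood at 2.01, 1.97 and 1.13 RPKM in negative and 10.1, 14.5 and 8.23 in positive libraries. The fold was 5.16, with no overlap and a call that held throughout (2.37 ± 0.25, adjusted p = 0.00251; covariate fit 2.14, adjusted p = 0.0749). Hspb8, a small heat shock protein that works in chaperone-assisted autophagy, stood at 10.9, 12.98 and 10.6 RPKM (negative) against 26.4, 24.7 and 28.1 (positive), a log2 fold change of 1.17 ± 0.11 (adjusted p = 0.00158; covariate fit 1.05, adjusted p = 0.0246). Hspa5, the main chaperone of the endoplasmic reticulum, stood at 154, 155 and 138 RPKM (negative) against 144, 162 and 137 (positive) with overlapping groups (-0.02 ± 0.09, adjusted p = 0.922). Among 39 genes of p53, the cell cycle and senescence, 4 (10.3%) were higher and 0 lower. Cdkn1a, the cell cycle inhibitor p21, stood at 6.35, 8.64 and 8.69 RPKM (negative) against 18.7, 33.5 and 32.4 (positive), highest in positive libraries 2 and 3 (1.74 ± 0.23, adjusted p = 0.00731; held throughout; covariate fit 0.96, adjusted p = 0.0895). Trp53 itself was higher by 0.58 ± 0.12 and, like the kinase gene Cdk4, lost in all omissions except that of positive library 1 (adjusted p up to 0.123 for Trp53 and 0.138 for Cdk4).

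Cytokine and innate immune signalling genes were called higher more often than the 5.77% of all genes. Higher were 26 of 64 (40.6%) cytokine and chemokine genes and 15 of 41 (36.6%) genes of Toll-like receptors, pattern receptors and NF-kB. On both lists 0 were lower. Osmr, the receptor for oncostatin M, stood at 2.87, 2.796 and 2.39 RPKM in negative and 9.95, 8.64 and 10.2 in positive libraries, and Stat3, the transcription factor downstream of it, at 22.6, 23.2 and 21.8 RPKM (negative) against 44.1, 45.4 and 47.8 (positive). Both were tight within groups and apart between them, with log2 fold changes of 1.66 ± 0.14 (adjusted p = 0.00102) and 1.01 ± 0.08 (adjusted p = 8.62e-04). Nfkbia, the inhibitor of NF-kB that NF-kB itself induces, stood at 18.7, 15.4 and 18.3 RPKM (negative) against 36.4, 28.8 and 36.7 (positive), a log2 fold change of 0.94 ± 0.13 (adjusted p = 0.00680). Tlr2, a receptor for bacterial lipoproteins, stood at 0.5904, 0.649 and 0.401 RPKM (negative) against 3.67, 3.33 and 4.2 (positive), a log2 fold change of 2.02 ± 0.18 (adjusted p = 0.00139). Cxcl16, a membrane-bound chemokine, stood at 0.969, 0.828 and 0.8297 RPKM (negative) against 6.27, 5.99 and 5.08 (positive), a log2 fold change of 2.19 ± 0.16 (adjusted p = 6.47e-04). All 5 held throughout and in the covariate fit. Among purine signalling genes, 4 of 21 (19.0%) were higher, against 5.77% of all genes. P2ry6, a receptor for UDP that drives phagocytosis by microglia, stood at 1.497, 1.14 and 1.53 RPKM (negative) against 5.905, 4.14 and 3.96 (positive), a log2 fold change of 1.44 ± 0.20 (adjusted p = 0.00690) and held throughout.

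Genes of the TGF-beta, BMP, Wnt and Notch pathways were read against the shares over all genes, 5.77% higher and 1.65% lower. Of 49 TGF-beta and BMP genes 7 (14.3%) were higher and 1 (2.04%) lower (median 0.40). The type II receptor gene Tgfbr2 stood at 12.5, 10.6 and 10.1 RPKM in negative and 23.6, 21.1 and 23.2 in positive libraries (1.004 ± 0.11, adjusted p = 0.00304). Bmpr1b, a type I BMP receptor, stood at 21.3, 25.9 and 22.5 RPKM (negative) against 41.97, 38.3 and 40.5 (positive), a log2 fold change of 0.78 ± 0.10 (adjusted p = 0.00479). Id3, a target of BMP signalling that blocks differentiation factors, stood at 39.6, 38.5 and 33.8 RPKM (negative) against 91.5, 83.5 and 62.6 (positive), a log2 fold change of 1.06 ± 0.14 (adjusted p = 0.00674). The 3 calls held throughout and in the covariate fit, and in each gene positive library 1 was the highest. Acvr2a, an activin receptor, was the member called lower (-0.46 ± 0.09), lost without negative library 1 or 3 or positive library 2 or 3 (adjusted p up to 0.101). Of 44 Wnt genes 7 (15.9%) were higher and 0 lower (median 0.26), none holding throughout. Apcdd1, a membrane inhibitor of Wnt, stood at 10.7, 9.31 and 8.06 RPKM (negative) against 19.3, 19.99 and 15.8 (positive). Its log2 fold change was 0.94 ± 0.14 (adjusted p = 0.00973), and its call was lost without positive library 2 (adjusted p = 0.0550). Among 24 Notch genes 2 (8.33%) were higher, close to the share over all genes: Dner (0.64 ± 0.12) and Lfng (0.68 ± 0.13). Neither held throughout. Dner was lost without negative library 1 or 3 or positive library 2 or 3 (adjusted p up to 0.0892). Lfng was lost without negative library 1 or 3 or positive library 3 (adjusted p up to 0.0983).

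Matrix genes rose in 10 of 60 (16.7%) and fell in 1 (1.67%), against 5.77% and 1.65% of all genes. The share lower was close to that over all genes. Sparc, a matrix protein of glia and vessels, stood at 159.8, 172 and 169.6 RPKM in negative and 301, 346 and 424 in positive libraries (1.08 ± 0.12, adjusted p = 0.00319). Timp1, an inhibitor of matrix proteases, was low in negative libraries at 0.411, 0.166 and 0.2298 RPKM and stood at 1.75, 1.64 and 1.99 in positive ones (1.59 ± 0.20, adjusted p = 0.00479). The member called lower was Col19a1, a collagen made by neurons, at 31.3, 28.9 and 30.6 RPKM (negative) against 18.8, 18.3 and 18.2 (positive), a log2 fold change of -0.70 ± 0.08 (adjusted p = 0.00396). None of the 3 overlapped between groups, and all 3 held throughout, with 0.75, 1.67 and -0.62 in the covariate fit (adjusted p = 0.0691, 0.0718 and 0.0691).

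Of 68 tau kinases, phosphatases and microtubule proteins 2 (2.94%) were higher and 1 (1.47%) lower, against 5.77% and 1.65% of all genes, with a median of -0.03. The higher ones were the tubulin genes Tuba1a (0.39 ± 0.10) and Tubb6 (2.45 ± 0.48), the latter at 0.6903, 0.418 and 0.667 RPKM (negative) against 2.07, 7.75 and 9.36 (positive) and highest in the libraries with olfactory bulb markers. Both were lost in all omissions except that of positive library 1 (adjusted p up to 0.153 and 0.101). Gsk3b, a kinase that phosphorylates tau, stood at 192, 226 and 217 RPKM in negative and 191, 199.5 and 205 in positive libraries with overlapping groups (-0.09 ± 0.09, adjusted p = 0.551). Kif5a, a kinesin of axonal transport, was lower at 796, 814 and 844 RPKM (negative) against 594, 448 and 414 (positive), a log2 fold change of -0.77 ± 0.13 (adjusted p = 0.0157), a call lost without negative library 1 or 3 or positive library 2 or 3 (adjusted p up to 0.0777). Of 37 Alzheimer risk and amyloid genes, 12 (32.4%) were higher and 1 (2.7%) lower, against 5.77% and 1.65% of all genes. The lower one was Slc24a4, an exchanger of sodium, potassium and calcium (-0.89 ± 0.17, adjusted p = 0.0214), lost without negative library 1 or 3 or positive library 2 or 3 (adjusted p up to 0.0790).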

How the data were processed

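RNA was sequenced from 6 frontal cortex libraries, 3 rTg4510-negative and 3 rTg4510-positive, with a TruSeq Stranded kit after RiboZero Gold depletion and 75 bp pairs, per the labels' protocols, which give RIN values of 6.1 to 9.5 for the series. The authors deposited RPKM values per gene and library. STAR, HTSeq and mm10 are named in the submitters' processing notes; versions and the strand setting of the counting are not given in the sources used here, so antisense and overlapping genes may share reads. The RPKM steps gave whole reads within 0.005 for 17247 of 17247 genes above 0 in the table, and these steps gave the depth of each library. They fit lengths close to coding lengths, of which 93.9% are multiples of 3.

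Values were taken as log2(RPKM + 0.5), on which scale all fold changes are given and which understates changes of low genes. Genes with at least 0.5 RPKM in at least 3 libraries were tested with limma 3.58.1 (trend and robust; R 4.3.3) on group alone, adjusted by Benjamini-Hochberg over all of them, with a threshold of 0.05. Errors are limma's standard errors and n = 3 per group. No other columns of per-sample values were used. On simulated data with 13696 genes, 47.8%, 76.1% and 90.9% of genes changed 1.5-, 2- and 4-fold were called, with 4% false calls. Changes were planted only in genes above a minimum read count, and the spread was taken from the negative libraries, so the shares called do not cover low genes. These simulated data held no sex or tissue difference between the groups. Tables and figures were made with Python 3.11.15, pandas 2.3.3, numpy 2.4.6, scipy 1.17.1 and matplotlib 3.10.9. Gene positions and promoters are from RefSeq (GRCm38.p6), matched by symbol for 20565 of 20661 genes.

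The members and the 57 gene lists were chosen with earlier results of these data known. Named genes were, for each list, up to 6 called members with the smallest adjusted p and up to 3 more with the largest change, or 2 with the highest RPKM where none was called; the 20 highest and 20 lowest called genes whose higher group averaged 2 RPKM or more, without predicted, Y-linked and mitochondrial genes; the insertion loci; and the Y-linked genes. Arc, Calb1, Ctsa, Ddx3x, Drd1, Eif2s3x, Eomes, Fos, Gad1, Gsk3b, Hspa5, Kdm6a, Lamp1, Nrgn, Nrn1, P2ry12, Ptges, Slc24a4, Snap25, Sst, Trpc6 and Ttr fall outside that rule and were chosen after their values were seen. Xist was not analysed here. Alternatives changed the pseudocount, the filter, the scaling, the test and the libraries. The covariate fit and the fits without positive libraries 2 and 3 or without negative libraries 1 and 3 were added after seeing the data. A few genes are not reported here.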

Additional observations from a re-analysis of the deposited data

How the results depend on the processing

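No paired analysis was possible because the 2 groups share no replicate number in the labels. The counts of genes called, called higher and called lower were 1037, 806 and 231. They moved by over 1.5 times as follows: with libraries scaled to the pan-neuronal list they were 2070, 1934 and 136, with library weights 5018, 3447 and 1571, with the regional markers as covariates 233, 194 and 39, without positive replicates 2 and 3 35, 29 and 6, and without negative replicates 1 and 3 44, 37 and 7. Higher calls fell to 433 with quantile normalization, and were 537 with median-of-ratios scaling and 434 with the length trend removed, where lower calls were 388 (median-of-ratios scaling) and 402 (length trend). Leaving out 1 library at a time gave 282 to 2406 genes called, 237 to 1666 higher and 45 to 740 lower; the cause of these moves was not tested. Other pseudocounts and filters, voom on the recovered reads and limma without trend and robust kept all 3 counts within 1.5 times. Of the 1037 genes, 768 were also called with median-of-ratios scaling, 663 with quantile normalization and 850 by voom. Scaling to the pan-neuronal list moved the median of all genes from 0.09 to 0.27.

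Of the genes named here, 14 lost their call with quantile normalization, 8 with median-of-ratios scaling, 16 with the length trend removed and 13 when scaled to the pan-neuronal list, and among calls that held throughout only that of Mapk4 was lost, in the last of these 4. No called gene among them changed direction under any of these settings. Genes not called did, and no direction should be read for them. Scaled to the pan-neuronal list, Fgf14 stood at 0.07, Fos at 0.025, Gsk3b at 0.10, Hspa5 at 0.17, Mapt at 0.15, P2ry12 at 0.15 and Sst at 0.02 (log2 fold change). With library weights the log2 fold change of Fgf14 was 0.278, the log2 fold change of Gsk3b 0.002 and the log2 fold change of Hspa5 0.039. In the covariate fit Drd1 stood at -0.20, Eomes at -0.53, Fos at 0.83, Gad1 at -0.25, Mapt at 0.27, Snap25 at 0.01 and Sst at 0.65. Without positive replicates 2 and 3, Fos stood at 0.18, Mapt at 0.15 and Sst at 0.46, and without negative replicates 1 and 3 Drd1 stood at -1.26, Fos at 0.59 and Mapt at 0.067. Leaving out 1 library turned Fgf14 (-0.43 to 0.17), Fos (-0.53 to 0.36), Hspa5 (-0.086 to 0.033), Mapt (-0.121 to 0.029), P2ry12 (-0.13 to 0.11) and Sst (-0.47 to 0.07), given as the lowest to the highest value.

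With 3 libraries a group, a small change could often be missed: 47.8% of simulated 1.5-fold changes were called. The simulation held no sex or tissue difference between the groups, and its changes were not planted in genes of low read counts. In the real data sex was confounded with genotype and tissue differed between libraries, so the simulated shares do not cover those limits.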

Other observations

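Ion pumps and chloride transporters moved both ways, 4 (14.3%) higher and 3 (10.7%) lower of 28. Over all genes 5.77% were higher and 1.65% lower. Clic1, a chloride channel protein that is strong in microglia, stood at 10.4, 10.3 and 8.86 RPKM (negative) against 23.7, 32.2 and 27.7 (positive), with no overlap and a log2 fold change of 1.44 ± 0.13 (adjusted p = 0.00151). It held throughout and in the covariate fit (1.11, adjusted p = 0.0342). Slc12a5, the chloride exporter KCC2 of mature neurons, was lower at 137, 147 and 152 RPKM (negative) against 119, 113 and 99.3 (positive), a log2 fold change of -0.40 ± 0.09 (adjusted p = 0.0425). Atp2b1, a calcium pump of the plasma membrane, stood at 361, 426 and 399 RPKM (negative) against 286, 295 and 308 (positive), a log2 fold change of -0.41 ± 0.09 (adjusted p = 0.0309). The calls of Slc12a5 and Atp2b1 were lost in all omissions except that of positive library 1 (adjusted p up to 0.141 and 0.117). Among 39 genes of steroid, thyroid and retinoid response 2 (5.13%) were higher and 3 (7.69%) lower. The lower ones included Nr3c1, the glucocorticoid receptor gene, at 107, 96.1 and 98.4 RPKM (negative) against 82.1, 76.6 and 73.6 (positive), a log2 fold change of -0.37 ± 0.08 (adjusted p = 0.0349) that was lost without negative library 1 or 3 or positive library 2 or 3 (adjusted p up to 0.148).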
